A study of Mus musculus with 4 samples.

Results

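Peroxiredoxins, catalase and superoxide dismutases are the enzymes that remove superoxide and hydrogen peroxide from cells, and 10 of their genes were followed through spatial transcriptomes of mouse lung. The set holds the 6 peroxiredoxins Prdx1 to Prdx6, the catalase gene Cat and the superoxide dismutases Sod1, Sod2 and Sod3, chosen by name from the 32285 genes of the count tables, and all 10 were detected in every section. Each section was a cryosection of the upper pulmonary branches of 1 C57BL/6J mouse on a Visium slide, with 1 male and 1 female Vaped (V) and 1 male and 1 female Non-Vaped (NV). V mice breathed e-vapor of Peach Ice flavored vape juice from JUUL pens in a whole-body chamber, for 4 hours a day on 5 days a week over 9 weeks, and their sample names carry the code 0_Per. NV mice had no vape exposure, no engineered allele is named for either group, and the labels give no age. The group difference therefore rests on 2 sections against 2, and the replicate number in the sample names is also the sex.

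In the background chemistry of this system, superoxide dismutases turn superoxide into hydrogen peroxide, with Sod1 in the cytosol, Sod2 in mitochondria and Sod3 secreted to the extracellular matrix. Hydrogen peroxide is then reduced by peroxiredoxins, most of which thioredoxin recharges, or is split by catalase in peroxisomes. Prdx1 and Prdx2 are cytosolic, Prdx3 is mitochondrial, Prdx4 sits in the secretory pathway, Prdx5 is found in mitochondria, peroxisomes and cytosol, and Prdx6 is a 1-cysteine enzyme that also acts on surfactant phospholipids in the lung.

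A spot is a small region that can hold several cells, so spots were put into classes by marker genes and summed within each section. Spots were alveolar where Sftpc and 5 other markers of the gas-exchange epithelium reached 1% of UMIs (unique molecular identifiers, each standing for 1 captured RNA molecule), unless muscle markers such as Myl7 and Tnni3 reached 1%, adipose markers such as Adipoq reached 0.5% or airway secretory and ciliated markers such as Scgb1a1 reached 3%. The NV male had 633 alveolar, 21 airway and 180 muscle spots, the NV female 369 alveolar, 54 muscle and 31 adipose spots, and the V female 1565 alveolar, 143 airway, 170 muscle and 159 adipose spots. The V male stood apart, because all of its 1565 spots were alveolar. Sections held 6957392 to 34308556 UMIs, and the median per spot ran from 6259 in the V male to 11355 in the V female. Classes with under 20 spots in a section were not used, which leaves the airway and the adipose class with 2 sections each. The muscle markers are genes of heart muscle, with a summed level of 24950 to 35290 CPM (counts per 1000000 UMIs) in muscle spots and 2572 to 4987 in alveolar spots of the same sections.

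The marker check for adipose spots showed a difference between the sections. Ucp1, the uncoupling protein that defines brown fat, was at 2921 CPM in the adipose spots of the V female and at 3.86 in those of the NV female. Elovl3, another brown fat gene, was at 189.7 and 2.90 in the same order, whereas Adipoq, the adiponectin gene shared by fat depots, was at 1132 and 2766. Cox8b, a gene of brown fat and of heart muscle, was at 3527 and 989 in the same order. The adipose spots of the V female and the NV female therefore differ in Ucp1 and Elovl3, while Cox8b was present in both.

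The antioxidant response element is a short DNA motif known to control several genes of thiol metabolism, and its core letters TGACNNNGC were searched on both strands in the 250 bases before the RefSeq start of the 8 members whose start region was at hand (build GRCm38.p6). It was present in 2 of those 8, Prdx1 and Sod1, and in 10.2% of all 32851 start regions searched. The core letters of the NRF1 motif (GCATGCGC, in 2.26% of start regions) and of the ERR half-site (AAGGTCA, in 4.08%), motifs of factors known for mitochondrial genes, had no match in the 8. No match overlapped another. The stretches of Prdx1 and Sod1 are shown because they hold the match, given in capitals, and that of Prdx3 because this gene had the highest fold change of the 10 in muscle and adipose spots. They are cut where the annotated gene begins and read 5′ to 3′ on the strand of the gene.
Prdx1, chr4:116685349-116685543, plus strand: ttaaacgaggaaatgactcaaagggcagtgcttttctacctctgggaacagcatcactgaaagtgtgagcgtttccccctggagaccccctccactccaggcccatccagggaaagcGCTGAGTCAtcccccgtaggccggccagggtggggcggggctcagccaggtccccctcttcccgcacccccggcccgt
Sod1, chr16:90220512-90220753, plus strand: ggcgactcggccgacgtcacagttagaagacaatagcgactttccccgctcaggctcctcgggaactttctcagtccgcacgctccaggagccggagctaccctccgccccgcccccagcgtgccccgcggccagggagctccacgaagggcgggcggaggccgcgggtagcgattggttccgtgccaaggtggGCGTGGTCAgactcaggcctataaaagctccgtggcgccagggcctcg
Prdx3, chr19:60874557-60874788, minus strand: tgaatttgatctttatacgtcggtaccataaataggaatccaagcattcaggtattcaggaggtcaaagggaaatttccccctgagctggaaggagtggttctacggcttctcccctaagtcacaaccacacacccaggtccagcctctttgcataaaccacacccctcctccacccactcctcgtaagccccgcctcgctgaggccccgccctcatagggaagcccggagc
The Prdx1 match lies at positions -133 to -125 from the RefSeq start and the Sod1 match at -56 to -48, both on the opposite strand. A match describes these letters alone, since binding was not measured.

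Levels in alveolar spots came first, as this class is present in all 4 sections. Levels are CPM, taken over all UMIs of the class in that section. They are not divided by gene length, because each molecule is counted once from its 3′ end. Prdx6 had the highest level of the 10 in every section, at 806 and 804 in the NV male and NV female and at 1563 and 864 in the V male and V female. The V male was far above the other 3, which lay close together. Sod1 came next, at 552, 601, 801 and 719.7 in the same order, followed by Prdx1 at 534, 584, 516 and 584. The ranges of Sod1 and Prdx1 over sections overlap, although Sod1 was above Prdx1 in each of the 4 sections.

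Sod3, the extracellular dismutase, was at 435, 449.6, 442 and 424, the narrowest range of the 10 members, with the highest section 1.06 times the lowest. Cat was at 293, 329, 278 and 328, below Sod3 in every section. Prdx2, Prdx5 and Sod2 formed a lower tier whose ranges overlap. Prdx2 was at 201, 169, 136 and 180.3, Prdx5 at 156, 160.3, 132 and 204, and Sod2 at 146, 151, 109.9 and 211. In each of these 3 genes the V male was the lowest section. Prdx3 ranged from 47.0 to 69.3 and Prdx4 from 49.0 to 66.0, the lowest levels of the set. Together the 10 genes took 0.323%, 0.336%, 0.408% and 0.365% of alveolar UMIs, and Prdx6 alone made up 23.7% to 38.3% of that sum. Prdx6b, a near copy of Prdx6, had 1 to 5 UMIs per section against at least 3886 for Prdx6.

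**Figure D1:**
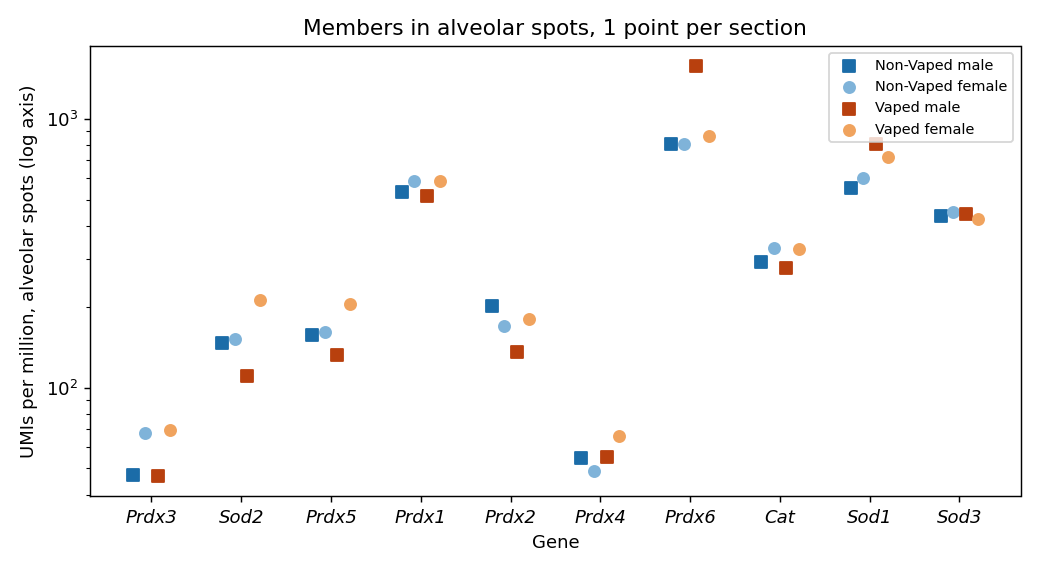
Level of each member in alveolar spots, in CPM on a log axis, with 1 point per section (squares male, circles female, blue Non-Vaped, orange Vaped). Prdx6 of the Vaped male, at 1563, lies apart from the other 3 sections at 804 to 864, while the 4 points of Sod3 lie between 424 and 449.6.

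Among alveolar spots of a section, members also differed in how evenly they were spread. The spread beyond counting error, as a coefficient of variation over spots, was 21.9% to 29.6% for Prdx6 and 19.3% to 30.4% for Sod3 in the 4 sections, against 10.3% to 16.8% for Prdx1. For Prdx3 and Prdx4 it came from a mean of under 1 UMI per spot, and at most 46.8% of spots held a UMI of Prdx3. These values describe spots of the same sections and carry no test.

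Muscle spots differed from alveolar spots in 8 of the 10 members, in a comparison over the 3 sections that hold both classes. Prdx3, Sod2, Prdx2 and Prdx5 were higher, and Prdx6, Sod3 and Cat were lower. Prdx1 was called higher with TMM and not with total UMIs alone. A gene was called where its adjusted p was below 0.05 and its log2 fold change exceeded 0.25 in either direction, in edgeR's quasi-likelihood test, with the section as a block and TMM scaling (which sets most genes to no change). By that rule 5 members rose and 3 fell, where 23.6% of the 13647 genes tested rose and 20.9% fell. The members' median log2 fold change was 0.35, against -0.03 over all genes tested. Fewer cells of a type and less RNA per cell cannot be told apart in such sums.

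The mitochondrial enzymes led the rise. Prdx3 was at 47.2 in alveolar and 118 in muscle spots of the NV male, at 68.0 and 153 in its female counterpart, and at 69.3 and 129.6 in the V female. All 3 muscle values exceed all alveolar values, and the log2 fold change was 1.62 (SE 0.12, edgeR adjusted p = 4.8e-08). Sod2, which makes hydrogen peroxide in the same compartment, went from 146 to 333, from 151 to 334 and from 211 to 377 in those sections. Its log2 fold change was 1.57 (SE 0.13, edgeR adjusted p = 1.51e-07). Prdx5 went from 156 to 243, from 160.3 to 327 and from 204 to 303, with a log2 fold change of 1.26 (SE 0.13, edgeR adjusted p = 1.81e-06). Prdx2, the cytosolic enzyme also known for its abundance in red cells, went from 201 to 309, from 169 to 344 and from 180.3 to 304, with a log2 fold change of 1.32 (SE 0.12, edgeR adjusted p = 7.28e-07). The marker sum of red cells was 12938, 18126 and 18422 CPM in alveolar spots of these sections and 8881, 4517 and 7422 in muscle spots, and its part in the Prdx2 values was not tested.

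Prdx6, Sod3 and Cat fell. Prdx6 went from 806 to 245, from 804 to 200.4 and from 864 to 288 in the same order of sections. Its muscle level was 24.9% to 33.3% of the alveolar level, and the log2 fold change was -1.24 (SE 0.13, edgeR adjusted p = 2.04e-06). Sod3 went from 435 to 203, from 449.6 to 154 and from 424 to 198, with a log2 fold change of -0.72 (SE 0.12, edgeR adjusted p = 0.000235). Cat went from 293 to 157, from 329 to 156 and from 328 to 219, with a log2 fold change of -0.32 (SE 0.12, edgeR adjusted p = 0.038). The Cat call was lost without the NV male (-0.30, adjusted p = 0.194), without the NV female (-0.25, adjusted p = 0.146), with all marker limits halved (-0.15, adjusted p = 0.421) and in DESeq2 (-0.31, adjusted p = 0.0856).

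In the remaining 3 members the call or the sign depended on how the classes were scaled. The sizes of the other members' changes moved as well. The highest log2 fold change of the 10 was 1.62 with TMM and 1.11 with total UMIs alone, and the lowest was -1.24 and -1.76. With edgeR scaled to total UMIs alone, the median of all genes in muscle against alveolar spots moved to -0.54, and 1691 genes were called higher and 7683 lower, against 3214 and 2850 with TMM. Prdx1 was at 534, 584 and 584 in alveolar spots and at 496, 528 and 537 in muscle spots, which is slightly lower in each section, whereas its log2 fold change with TMM was 0.40 (SE 0.12, edgeR adjusted p = 0.0176) and with total UMIs -0.12 (adjusted p = 0.362). The Prdx1 call was also lost without the NV male (0.38, adjusted p = 0.137) and with the limits halved (0.24, adjusted p = 0.228). Sod1, at 552, 601 and 719.7 in alveolar and 399.7, 405 and 488 in muscle spots, gave -0.01 (SE 0.12, edgeR adjusted p = 0.953) with TMM and -0.53 (adjusted p = 0.0011) with total UMIs. Prdx4 gave 0.30 (SE 0.13, edgeR adjusted p = 0.084) with TMM and -0.21 (adjusted p = 0.167) with total UMIs, and was called higher without the V female (0.54, adjusted p = 0.00384). Of the 10 members, 4 were called higher and 4 lower with total UMIs. The sections also differ in depth here, since muscle spots of the NV male had a median of 5630 UMIs, and those of the females 27962 (NV) and 31252.5 (V). The part of that gap in these values was not tested.

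**Figure D2:**
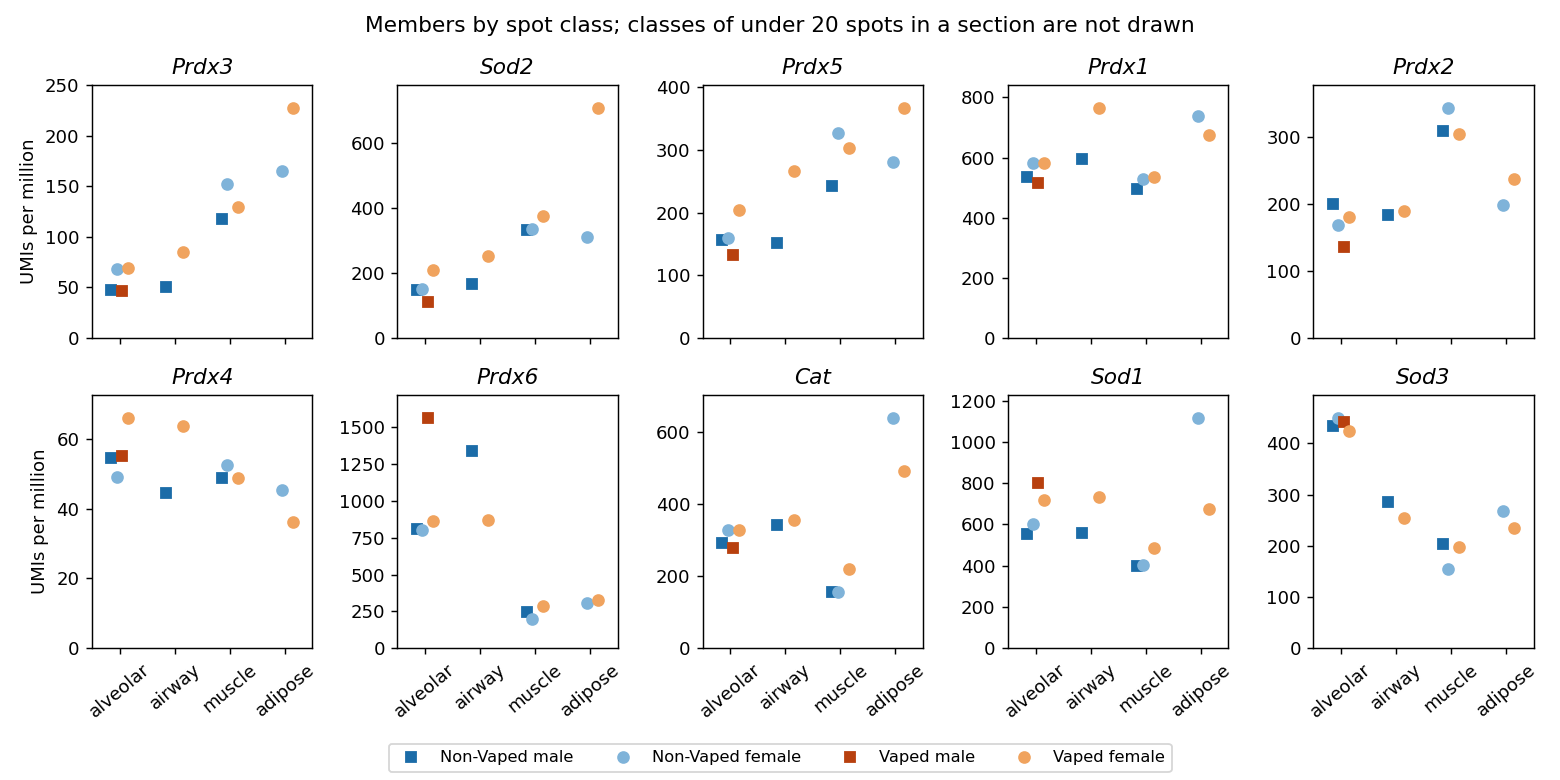
Level of each member in CPM (linear axes from 0, a scale for each gene) by spot class, with 1 point per section (squares male, circles female, blue Non-Vaped, orange Vaped). Prdx3, Sod2, Prdx5 and Prdx2 lie higher in muscle than in alveolar spots of every section with both classes, and Prdx6 and Sod3 lie lower, with Prdx6 at 200.4 to 288 in muscle spots.

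Adipose spots, compared with alveolar spots of the NV female and the V female, had 7 members higher and 1 lower in the same test, where 18.2% of the 13535 genes tested were higher and 17.4% lower. The members' median log2 fold change was 0.85, against -0.08 over all genes. Prdx3 went from 68.0 to 165 in the NV section and from 69.3 to 227 in the V section, with a log2 fold change of 2.03 (SE 0.19, edgeR adjusted p = 0.000124). Sod2 went from 151 to 311 and from 211 to 708, with a log2 fold change of 1.91 (SE 0.24, edgeR adjusted p = 0.000472). In both genes the section with the higher Ucp1 had the higher adipose level, and so it was for Prdx2, Prdx5 and Prdx6. For Prdx1, Prdx4, Cat, Sod1 and Sod3 the other section was higher. Cat went from 329 to 639 and from 328 to 491, with a log2 fold change of 1.26 (SE 0.17, edgeR adjusted p = 0.000719), and here the NV female had the higher adipose level. Prdx5 went from 160.3 to 281 and from 204 to 367, with a log2 fold change of 1.33 (SE 0.16, edgeR adjusted p = 0.000434).

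Sod1 went from 601 to 1115 in the NV section and from 719.7 to 675 in the V section, so that they go opposite ways in CPM. Its log2 fold change was 0.89 (SE 0.22, edgeR adjusted p = 0.0148) and 0.39 (adjusted p = 0.164) when scaled to total UMIs. Prdx1, at 0.77 with TMM, and Prdx2, at 0.82, were likewise no longer called with total UMIs, at 0.27 and 0.32. Prdx6 went from 804 to 303 and from 864 to 328. Its log2 fold change was -0.91 with TMM and -1.40 with total UMIs, the lowest of the members in both. Prdx4 at -0.07 and Sod3 at -0.31 were not called with TMM and were called lower with total UMIs, at -0.57 and -0.80. That scaling moved the median of all genes to -0.60 and gave 1396 genes higher and 6395 lower, against 2462 and 2356 with TMM. The exposure and the level of Ucp1 in the fat cannot be told apart, since each comes from 1 section.

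Airway spots, compared with alveolar spots of the NV male and the V female, gave no call among the 10 members in edgeR's test, where 8.16% of the 13834 genes tested were called. At an unadjusted p under 0.05 there were 3 members, beside 2516 of the 13834 genes, and DESeq2 called 0 members. Prdx6 went from 806 to 1338 in the NV male and from 864 to 869 in the V female, so the rise was seen in 1 section, and the log2 fold change of 0.49 (SE 0.21) had an edgeR adjusted p of 0.202. Sod3 went from 435 to 286 and from 424 to 254, lower in both, with a log2 fold change of -0.56 (SE 0.19, edgeR adjusted p = 0.0804). It was called lower with no filter on low counts (-0.63, edgeR adjusted p = 0.0203), as were 642 of 20273 genes. With total UMIs Sod3 was also called lower (-0.68, edgeR adjusted p = 0.0115), as were 766 of 13834 genes, against 359 with TMM. That scaling moved the median log2 fold change of all genes from -0.008 to -0.12. Prdx1 went from 534 to 595 and from 584 to 765, with a log2 fold change of 0.41 (SE 0.19, edgeR adjusted p = 0.262). The other 7 members had log2 fold changes between 0.01 and 0.36. The NV male gave only 21 airway spots with 15 to 450 UMIs per member.

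**Figure D3:**
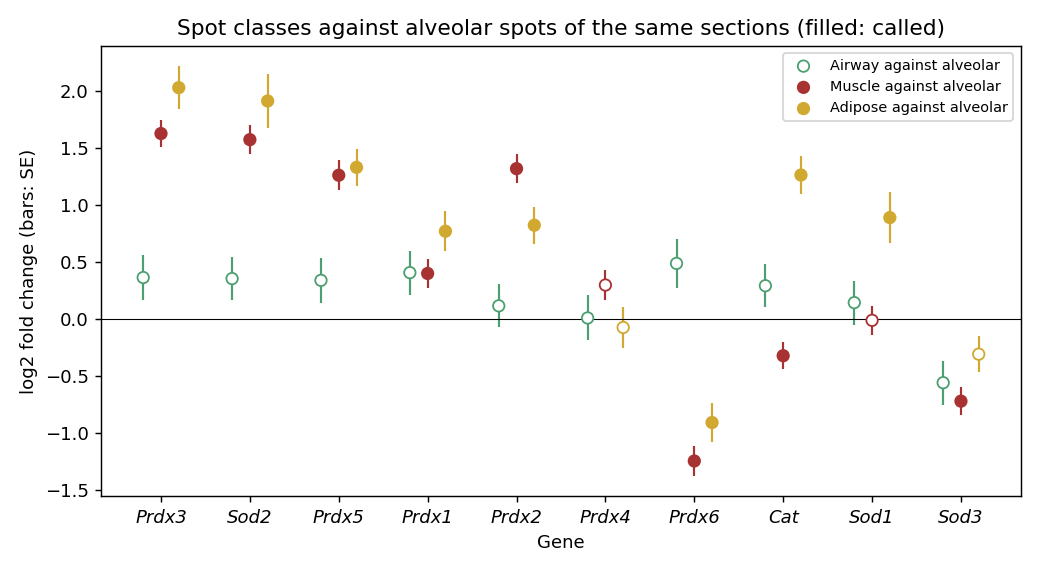
Log2 fold change of each member in airway, muscle and adipose spots against alveolar spots of the same sections, with TMM scaling. Bars are standard errors and filled points passed the call, which was so for 8 members in muscle spots, 8 in adipose spots and 0 in airway spots.

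The list of partners held genes of the systems that recharge or assist these members and, beside them, the glutathione peroxidases, which are peroxidases themselves. Of 21 genes of the thioredoxin, glutaredoxin, sestrin and glutathione peroxidase systems, 10 were called higher and 3 lower in muscle spots with TMM, beside 23.6% and 20.9% of all genes, with a list median log2 fold change of 0.52. With total UMIs alone the split turned to 4 higher and 8 lower, with a median of 0.01, beside 1691 and 7683 of 13647 genes. The 5 called genes with the largest changes under TMM were Txn2, the mitochondrial thioredoxin (1.19), Gpx3, the secreted glutathione peroxidase (1.09), the glutaredoxins Glrx5 (0.92) and Glrx (0.88), and Sesn2, a stress-induced sestrin (-0.75). In adipose spots 18.2% of all genes were called higher and 17.4% lower with TMM, and 1396 and 6395 of 13535 with total UMIs alone. There 11 of the 21 partner genes were called higher and 0 lower with TMM, with a median of 0.64. With total UMIs alone 7 were higher and 5 lower, with a median of 0.15. Those with TMM were led by Gpx4, which reduces lipid peroxides (1.87), Gpx8 (1.83), Glrx5 (1.73), Txnrd2, the mitochondrial thioredoxin reductase (1.66), and Glrx3 (1.48). In airway spots, where 8.16% of all genes were called, 2 of the 21 were called, both higher. Gpx2, a glutathione peroxidase of epithelia, was at 2.89 and 8.41 CPM in alveolar and 74.4 and 77.5 in airway spots of the NV male and the V female. Txnrd1, which recharges cytosolic thioredoxin, went from 62.4 to 119 and from 59.5 to 81.5, with a log2 fold change of 0.74 (SE 0.19, edgeR adjusted p = 0.0127).

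Lists of organelle genes were set beside the members that work in those organelles. Of all genes tested with TMM, 23.6% were called higher in muscle and 18.2% in adipose spots. With total UMIs alone 1691 of 13647 and 1396 of 13535 genes were. All 6 mitochondrial genes of the list (Cs, Atp5a1, Uqcrc2, Hspd1, Vdac1 and Tfam) were called higher in muscle spots with TMM, with a median of 1.60. All 6 were also called higher in adipose spots, with a median of 1.47. With total UMIs alone 4 were called higher in muscle spots (median 1.08) and 5 in adipose spots (median 0.97). With TMM, Prdx3 and Sod2 lay near the list median in muscle, at 1.62 and 1.57, and above it in adipose spots, at 2.03 and 1.91. Of 6 peroxisomal genes, 3 were called higher in muscle spots with a median of 0.39, where Cat was at -0.32, and 6 in adipose spots with a median of 1.77, where Cat was at 1.26. With total UMIs alone 0 of the peroxisomal genes were called higher and 2 lower in muscle spots (median -0.12), where 7683 of 13647 genes were lower. In adipose spots 5 were called higher with that scaling (median 1.26). DESeq2 called 1 peroxisomal gene higher in muscle spots, beside 2481 of 13647 genes, and 6 in adipose spots, beside 1599 of 13535. Neither list was tested as a set.

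**Figure D4:**
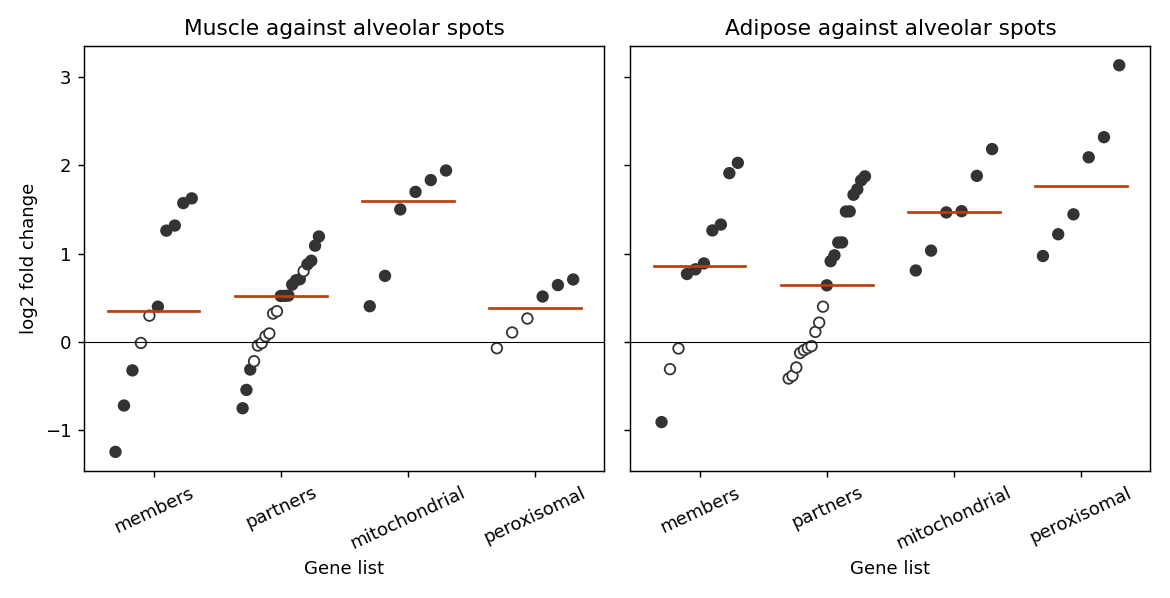
Log2 fold change in muscle and in adipose spots against alveolar spots for the 10 members, 21 partner genes, 6 mitochondrial and 6 peroxisomal genes, 1 point per gene, filled where called, with the list median as a line. The mitochondrial medians are 1.60 and 1.47 and the peroxisomal medians 0.39 and 1.77.

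Over the 11 sums of a section and class, the genes most alike in level were given by Pearson's r of log2 values as a description, since the sums come from 4 mice and share depth and tissue mix. The pattern of Sod2 was nearest to Idh3g, Idh3a and Ndufb6, with r of 0.99 each, and that of Prdx3 to Mrps21, Acat1 and Ndufs5, with r of 0.99 each. Prdx5 was nearest to Aifm1 (0.99), Mcrip2 (0.98) and Uqcrq (0.98), and Prdx2 to mt-Nd4l (0.97), Snrpn (0.97) and Vdac1 (0.97). Prdx6 was nearest to Epb41l4b, Gclc and Tent2, with r of 0.98, 0.98 and 0.97, and Sod3 to Arhgap29, Git2 and Cav2, with r of 0.98 each. Cat was nearest to Rtn4 (0.97), Sowahc (0.97) and Ptges (0.96). For Prdx1 (Tst, Mycbp and Idh1), Sod1 (Gstt2, Dpm1 and Dtymk) and Prdx4 (Smim1, Ten1 and Ralgapa1) the values lay between 0.87 and 0.95.

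Within the alveolar class, the 10% of spots richest in a cell type's markers were compared with the other alveolar spots of the same 4 sections. No member passed both the adjusted p and the fold limit in edgeR's test in any of the 5 such comparisons, and DESeq2 also called 0. Spots rich in markers of type 2 alveolar cells (AT2), the surfactant-making epithelium, had 2 members past the adjusted p alone. By both limits 1.6% of 12712 genes were called, and the share past the adjusted p alone is not given here. At an unadjusted p under 0.05 there were 2 members and 1254 genes. Cat was at 323 against 289 and 349 against 326 in NV (male, then female) and at 329 against 271 and 378 against 323 in V, higher in 4 of 4 sections. Its log2 fold change of 0.25 (SE 0.05, edgeR adjusted p = 8.51e-05) was just under the fold limit, and it was called when the NV male (0.25) or the NV female (0.26) was left out or the marker limits were halved (0.30). Prdx6 was lower in AT2-rich spots of all 4 sections, at 752 against 814, 752 against 810.2, 1434 against 1578 and 728 against 878, with a log2 fold change of -0.13 (SE 0.04, edgeR adjusted p = 0.0447).

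In macrophage-rich spots Prdx1 was at 568 against 530.3 and 659 against 574 in NV and at 592 against 508 and 637 against 579 in V, higher in 4 of 4 sections, with a log2 fold change of 0.16 (SE 0.05, edgeR adjusted p = 0.0483). There 1.54% of genes were called by both the adjusted p and the fold limit. Among them was 1 of the 21 partner genes, Gsr, the glutathione reductase (0.56). An unadjusted p under 0.05 was reached by 3 members and by 1140 of 12692 genes. Spots rich in plasma and B cell, red blood cell or smooth muscle markers had 0.27%, 0.239% and 0.612% of genes called. None had a member past the adjusted p. At an unadjusted p under 0.05 they had 1, 0 and 1 members, beside 799 of 12598, 753 of 12538 and 891 of 12573 genes. Prdx2 gave -0.03 (SE 0.07) in red cell rich spots. The marker sums were 1.68 to 1.86 times higher in the AT2-rich spots and 3.26 to 5.61 times higher in the macrophage-rich spots than in the others.

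Exposure was compared in alveolar spots, the class that all 4 mice share. In edgeR's test of 2 V against 2 NV sections 0 of 10 members and 0% of 14229 genes were called, with 0 members and 397 genes at an unadjusted p under 0.05. DESeq2 called 0 members and 14 genes. The largest difference among the members was that of Prdx6, with an NV mean of 805 ± 1.92 (SD, n = 2), a V mean of 1213 ± 494 (SD, n = 2) and a log2 fold change of 0.60 (SE 0.30, edgeR adjusted p = 1.0). It rests on the V male. Without that section the log2 fold change was 0.13, and without the V female it was 0.95. In each of these fits the lone V section is assumed to vary as the NV sections do. Sod1 averaged 577 ± 34.8 (SD, n = 2) for NV sections, against 760.3 ± 57.5 (SD, n = 2) for V sections, with a log2 fold change of 0.41 (SE 0.17, edgeR adjusted p = 1.0), and stayed between 0.35 and 0.47 when any 1 section was left out.

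Both V sections exceeded both NV sections in 3 members, Prdx6, Sod1 and Prdx4, where 14.8% of genes did so, and lay below both in 0 members, where 17.5% of genes did so. Prdx4 was at 54.6 and 49.0 in the NV male and female and at 55.1 and 66.0 in V, so the gap between the groups is under 1 CPM. In the other 7 members the groups overlap. Cat, Prdx1, Prdx3 and Sod3 had log2 fold changes between -0.03 and 0.04 with SEs of 0.17 to 0.28, which leaves differences of that size undetectable here. Sod2 went opposite ways in the sexes, with V over NV at -0.41 on the log2 scale in the males and 0.48 in the females.

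**Figure D5:**
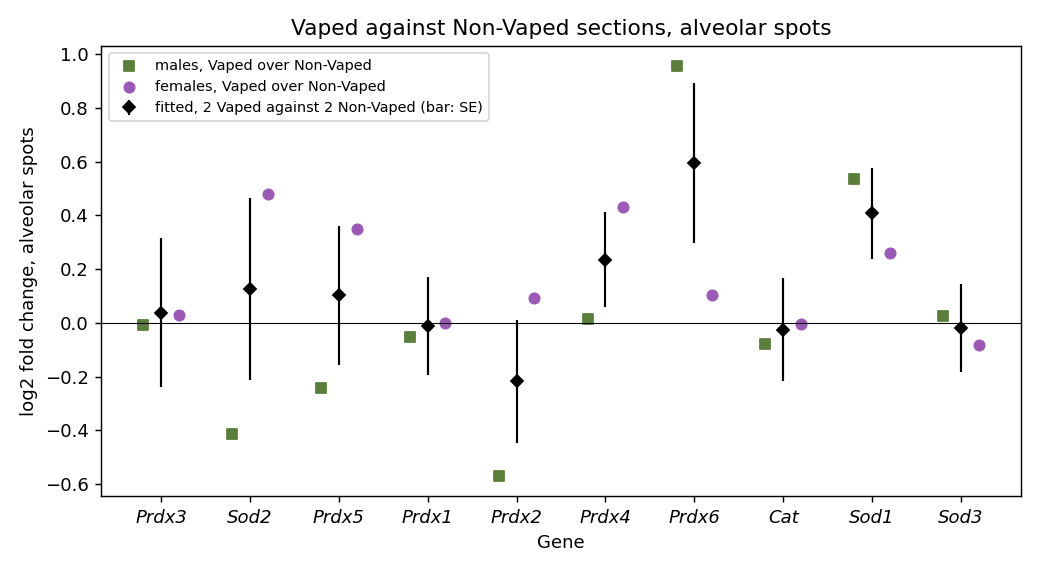
Log2 fold change of each member in alveolar spots of Vaped over Non-Vaped sections. Diamonds with standard error bars are the fit over the 4 sections, squares are the ratio in the males and circles that in the females, and Prdx6 shows 0.95 in the males and 0.10 in the females.

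Markers of other tissues in the alveolar sums differed between sections. The 8 muscle markers, all detected, summed to 4987 and 3632 CPM in the NV male and NV female and to 30.9 and 2572 in the V male and V female. The adipose markers summed to 308, 797, 23.8 and 1323, with Ucp1 at 280.1 in the V female and at most 0.513 in the other 3. The airway markers summed to 9016, 1622, 519 and 12202, and markers of type 1 alveolar cells (Rtkn2, Clic5, Pdpn, Akap5 and Gprc5a) to 1469, 1418, 2238 and 1678. Ager, a type 1 gene that was among the 6 alveolar markers, was at 1954, 1888, 3134 and 2606 CPM, higher in both V sections than in both NV sections. The V male was thus lowest in the 3 foreign lists and highest in the type 1 list. Halving all limits lowers the share of muscle, adipose and airway markers allowed in an alveolar spot, but also the share of alveolar markers required. The log2 fold change was then 0.65 for Prdx6 and 0.44 for Sod1. The part of the muscle, adipose and airway markers in the differences between V and NV was not tested.

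Over whole sections 0 of 10 members and 0% of 14570 genes were called in edgeR's test, with 0 members and 248 genes at an unadjusted p under 0.05, and DESeq2 called 0 members and 8 genes. Prdx4 and Sod1 were higher in both V sections than in both NV sections, where 12.6% of genes were. Prdx2 was lower in both, where 14.4% of genes were. Prdx2 was at 223.8 and 216.0 in the NV male and NV female and at 135.5 and 212.3 in the V male and V female, so the females lay close together. In the same order Prdx4 was at 53.2, 49.7, 55.1 and 57.2, and Sod1 at 521, 632, 801 and 676. The sections differed in the classes they held. Alveolar spots held 100% of the UMIs of the V male against 51.6% to 73.8% in the other 3 sections. Of the Sod2 UMIs of the V female, 41.8% came from adipose spots, which held 20.2% of that section's UMIs, whereas 67.4% of its Prdx6 UMIs came from alveolar spots. Sod2 over the whole section was at 189 and 219 in NV (male, then female) and at 109.9 and 343 in V.

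In muscle spots the 2 NV sections were set against the V female alone, which is assumed to vary as the NV sections do. There 0 of 10 members passed edgeR's test and 0 were at an unadjusted p under 0.05, DESeq2 also called 0, and 1.58% of 11880 genes were called. Cat showed the largest difference of the members, at 157 and 156 in NV and 219 in V, with a log2 fold change of 0.42 (SE 0.25, edgeR adjusted p = 0.889). The others lay between -0.17 and 0.30. Of the 21 partner genes 1 was called, Gpx2, at 4.35 and 0 CPM in NV and 12.7 in V, and the airway markers in the same spots summed to 4435, 1008 and 12249. No V against NV test could be made in airway spots, where each group had 1 section. There Prdx6 was at 1338 in the NV male and 869 in the V female, and the other 9 members were at 44.6 to 595 and 63.8 to 765.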

How the data were processed

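The authors sequenced Visium libraries of 4 lung sections, counted reads with Space Ranger on mm10 (GRCm38) and deposited unnormalized UMI counts per gene and spot. Seurat 4.0.3, which the submitters' processing notes name, does not enter these counts. The members and gene lists were chosen with earlier results of these data known. All 10 members are named, partner genes by the largest called change, and alike genes by correlation over sums of at least 20 spots (mean of at least 20 CPM, pseudocount of 1).

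Here spots were classed by marker share and summed per section and class, since spots are not replicates. Sums were tested with edgeR 4.0.16 (R 4.3.3, TMM, filterByExpr, quasi-likelihood, Benjamini-Hochberg over all genes tested), with section as a block between classes. DESeq2 1.42.0 was an alternative. SEs were derived from the fold change and F statistic. The test was tried on simulated data. Each section is 1 mouse. Over all sections, 50, 34, 0 and 129 spots (NV male, NV female, V male, V female) lay within 0.8 to 1.25 times a class limit. Prdx2, Prdx5 and Sod1 overlap genes on the opposite strand in GENCODE vM21, and the strand setting of the counting is not given in the sources used here. The 250-base start regions are from RefSeq.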

Additional observations from a re-analysis of the deposited data

Results flagged for a closer look

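Sod2 went opposite ways in the sexes. In alveolar spots the log2 ratio of V over NV was -0.41 in the males and 0.48 in the females, and over whole sections it was -0.78 and 0.64. The difference was not tested, because each sex has 1 mouse per group. Muscle markers summed to 30.9 CPM (counts per 1000000 UMIs) in the alveolar spots of the V male against 4987 in the NV male, and adipose markers to 1323 in the V female against 797 in the NV female, and their part in the ratios was not tested. No other member had ratios of opposite sign that were both over 0.25 in size.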

How the results depend on the processing

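Only muscle and adipose against alveolar spots had members called with TMM-scaled edgeR, and they gave 10 and 6 of the 111 alternative counts. Elsewhere a count of 0 beside 0 was taken as unchanged, which says nothing of stability. The muscle count stayed at 8 with total UMIs alone, although 5 higher and 3 lower became 4 and 4. Of the 111 alternative counts of members called, 105 stayed within 1.5 times the count with TMM-scaled edgeR. The others were each 1 member where 0 were called: Sod3 in airway spots with no filter and with total UMIs alone, Cat in AT2-rich spots with all limits halved, and, on leaving out 1 section, Cat in AT2-rich spots (0 to 1 members) and Prdx6 in V against NV alveolar spots (0 to 1). Of the 48 sign changes in a member's log2 fold change, 35 were between values at or under 0.25 in size. With total UMIs alone, Prdx1 and Prdx4 in muscle against alveolar spots turned to -0.12 and -0.21. With all limits halved, V against NV in muscle spots turned to 0.41 for Prdx3 and -0.43 for Prdx6. Leaving out 1 section in V against NV turned these members, given with their range: in alveolar spots Prdx3 (-0.28 to 0.32), Prdx5 (-0.26 to 0.40) and Sod2 (-0.44 to 0.54), and in whole sections Prdx2 (-0.84 to 0.023), Prdx3 (-0.98 to 0.50), Prdx5 (-0.73 to 0.46), Cat (-0.26 to 0.28) and Sod2 (-1.03 to 0.82). None of these was called in edgeR's test with all 4 sections.

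With the replicate block, which is also the sex, 0 members and 0 genes were called in whole sections and in alveolar spots (413 and 515 genes at an unadjusted p under 0.05). Deviations of same-numbered sections correlated over genes at 0.38 in whole sections and 0.12 in alveolar spots. The labels name no litter or batch for the number, so whether same-numbered samples share more than a sex is not known.

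Counts over all genes that moved by over 1.5 times were as follows. DESeq2 called 90 genes in AT2-rich (204 in edgeR), 2410 in adipose (4818), 278 in airway (1129), 21 in V against NV muscle (188), 101 in macrophage-rich (195), 15 in plasma and B cell rich (34), 15 in red cell rich (30) and 15 in smooth muscle rich spots (77). Total UMIs alone gave 7791 in adipose, 9374 in muscle (6064) and 74 in red cell rich spots. Halved limits gave 3563 in muscle, 16 in V against NV muscle and 42 in smooth muscle rich spots, doubled limits 225 in the latter, and spots of at least 1000 UMIs 109 in V against NV muscle. No filter gave 5 in V against NV alveolar spots. Without the V male or the V female, V against NV gave 43 and 848 genes in alveolar spots and 21 and 811 in whole sections. In the rich-spot comparisons, leaving out a section gave 134 without the V female (AT2), 18 to 21 (plasma and B cell), 13 (red cell) and 20 (smooth muscle).

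Leaving out a section, or a replicate block, was not run where it left no residual degrees of freedom (airway and adipose against alveolar, V against NV in muscle). Airway and adipose against alveolar spots with the limits doubled, and V against NV in airway spots, could not be fitted. Depth limits Prdx3 and Prdx4 most, with 15 to 17 UMIs in the airway spots of the NV male. The causes of these changes were not tested.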
